A study of Mus musculus with 6 samples.

Results

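The genes described here are 41 markers of microglia, the resident macrophages of the brain, taken from a list of gene symbols and followed through RNase R-treated mouse brain RNA after 4-aminopyridine. All 41 matched an identifier in the deposited tables, which hold 55604 genes, and 40 had at least 1 read. The 3 4-AP libraries came from brain of C57BL/6 mice injected intraperitoneally with 4-aminopyridine (4-AP), a blocker of voltage-gated potassium channels that the series' design text links to a status epilepticus model. The 3 control libraries, labelled NC, came from brain of untreated C57BL/6 mice. In both groups the RNA had been digested with RNase R, which digests linear molecules while circular ones resist it, and the counts add up whatever circular and linear RNA of a gene remained. The labels do not give age, sex, brain region or the time from injection to sampling, nor whether each sample came from a separate animal, so p-values measure the spread between these samples.

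Microglia survey brain tissue with receptors for signals that other cells release: CX3CR1 binds the neuronal chemokine fractalkine, P2RY12 senses purine nucleotides from injured cells, and CSF1R, with its ligands CSF1 and IL-34, keeps the cells alive. The transcription factor PU.1, encoded by Spi1, sets the macrophage programme together with IRF8 and RUNX1, and SALL1 marks the microglial form of it. Microglia are also the main source of C1q, which tags synapses and debris for removal, and are rich in lysosomal proteases. The libraries were made from whole tissue, so fewer cells of a type and less RNA per cell cannot be told apart.

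Total counts were 1507882 to 2721287 in the 4-AP libraries and 2355610 to 3409055 in the control libraries. The 41 genes together took 0.0923% to 0.116% of the reads in 4-AP libraries and 0.0837% to 0.115% in control libraries. Levels are given as CPM, read counts relative to library size, scaled by trimmed mean of M-values. The most counted gene, Lars2, took 12.4% to 21.4% of the reads in 4-AP libraries and 3.82% to 12.1% in control libraries, and its part in the results was not tested. A floor of 3 counts corresponded to 1.07 to 2.19 CPM in the 4-AP libraries and to 0.778 to 1.34 CPM in the control libraries, for counting error only. Of the 41 genes, 29 had enough counts to test and 12 did not.

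None of the 29 tested microglia genes passed the test between 4-AP and control brain (quasi-likelihood F test in edgeR, Benjamini-Hochberg adjusted p under 0.05 over all 11388 genes tested). Over all genes tested 0.843% passed, 0.334% higher and 0.509% lower in 4-AP brain. limma-voom also called 0 of the 29. DESeq2 called 1, Cx3cr1, but gave an adjusted p to only 5 of the 29 and none to the other 24. Its call therefore cannot be set beside 0 of 29. DESeq2 also called more of all genes, 82 on the higher side and 111 on the lower side. At an unadjusted edgeR p under 0.05 there were 5 of the 29, or 17.2%, beside 13.9% of all genes. Cx3cr1, P2ry12, Ctss and Cd81 were on the higher side (13.8% of the 29 beside 6.29% of all genes) and Siglech on the lower side (3.45% beside 7.57%). The CPM of the 3 4-AP libraries did not overlap those of the 3 control libraries in 6 of the 29, or 20.7%, beside 18.8% of all genes. The 4-AP libraries were above the controls in 5 of the 29 (17.2%, beside 8.36% of all genes) and below them in 1 (3.45%, beside 10.4% of all genes). In both directions together the shares lie near those of all genes, and the split by direction rests on 5 and 6 genes.

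The promoters of the 4 genes with the smallest p, Cx3cr1, Ctss, P2ry12 and Siglech, are printed to show which of them hold letters bound by the transcription factors of the list. Each runs from 250 bases before to 50 bases after the RefSeq start site (assembly GRCm38.p6), 5′ to 3′ along the gene, in lower case. Capitals mark matches, on either strand, to the PU.1 motif GAGGAAGT, the IRF motif (GAAA, 2 bases of any kind, GAAA) or the RUNX motif TGTGGTT.
Cx3cr1 (chr9:120068247-120068546, minus strand): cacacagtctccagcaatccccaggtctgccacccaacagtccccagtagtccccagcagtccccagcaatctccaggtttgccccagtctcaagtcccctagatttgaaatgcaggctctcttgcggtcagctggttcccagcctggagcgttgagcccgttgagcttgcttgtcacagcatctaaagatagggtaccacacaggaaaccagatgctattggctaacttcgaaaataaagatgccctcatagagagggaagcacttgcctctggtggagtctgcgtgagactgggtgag
Ctss (chr3:95526536-95526835, plus strand): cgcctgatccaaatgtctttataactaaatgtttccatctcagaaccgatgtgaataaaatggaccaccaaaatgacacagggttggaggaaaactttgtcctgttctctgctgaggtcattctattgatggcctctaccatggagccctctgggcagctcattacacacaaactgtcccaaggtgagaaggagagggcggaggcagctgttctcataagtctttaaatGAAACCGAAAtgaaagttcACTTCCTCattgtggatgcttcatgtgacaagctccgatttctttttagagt
P2ry12 (chr3:59262936-59263235, minus strand): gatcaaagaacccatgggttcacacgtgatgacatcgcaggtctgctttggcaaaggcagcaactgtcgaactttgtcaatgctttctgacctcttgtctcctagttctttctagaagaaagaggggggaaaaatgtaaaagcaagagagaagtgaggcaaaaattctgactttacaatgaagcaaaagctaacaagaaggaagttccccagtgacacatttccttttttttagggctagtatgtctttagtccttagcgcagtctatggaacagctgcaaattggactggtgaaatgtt
Siglech (chr7:55767934-55768233, plus strand): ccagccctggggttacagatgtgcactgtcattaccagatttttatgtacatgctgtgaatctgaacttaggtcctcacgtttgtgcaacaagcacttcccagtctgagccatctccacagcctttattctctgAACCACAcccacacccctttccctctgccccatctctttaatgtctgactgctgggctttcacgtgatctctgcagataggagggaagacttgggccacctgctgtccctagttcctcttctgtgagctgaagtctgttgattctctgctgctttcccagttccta

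In the Ctss promoter an IRF match covered bases -21 to -12 and a PU.1 match on the opposite strand covered bases -2 to 6, counted from the start site with no base 0, and the 2 matches did not overlap. The Siglech promoter held a RUNX match on the opposite strand at bases -116 to -110. Cx3cr1 and P2ry12 held none of the 3 strings in these windows. RefSeq promoters were matched for 34 of the 41 genes. The PU.1 string was in 6 of these 34, namely Ctss, C1qc, Inpp5d, Cd53, Apbb1ip and Slco2b1. That was 6 of the 45 windows of these genes, beside 3.2% of all 32851 promoter windows of the same length. The IRF string was in Ctss and Aif1, 2 of the 45 windows, and in 3.44% of all windows. The RUNX string was in Siglech, Fcrls and Runx1, 3 of the 45 windows, and in 5.27% of all windows. Several genes have more than 1 window, and a match describes letters only.

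Levels per exonic kilobase set the genes of the list far apart. They describe RNA left after RNase R, and the part of circular RNA in each was not tested. Cx3cr1, on chromosome 9 at 119901616 to 120069879 (mm10, minus strand), had the highest level, with a mean of 69.5 CPM per kilobase over the 6 libraries (SD 16.3, n = 6). It was followed by Cd81, a membrane tetraspanin that many brain cells also make, at 53.5 CPM per kilobase, and by the lysosomal proteases Ctsd at 44.8 and Lgmn at 30.8 CPM per kilobase. C1qa came next at 28.7 CPM per kilobase, and its range over the 6 libraries, 21.0 to 34.3, did not reach that of C1qb below it, 9.24 to 17.2. This was the 1 place in the order, Trem2 aside, where neighbours did not overlap in range. Csf1r stood at 11.7 CPM per kilobase, while the purine receptors P2ry12 and P2ry13 stood at 2.0 and 1.83. Trem2, the lipid-sensing receptor that signals through TYROBP, had 0 counts in all 6 libraries, which allows up to 3 counts in each, or 0.778 to 2.19 CPM, as far as counting goes. Whether the 0 comes from how reads were assigned to genes was not tested. Its partner Tyrobp had 38 counts in 4-AP and 37 in control brain and stood at 7.46 CPM per kilobase.

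**Figure D1:**
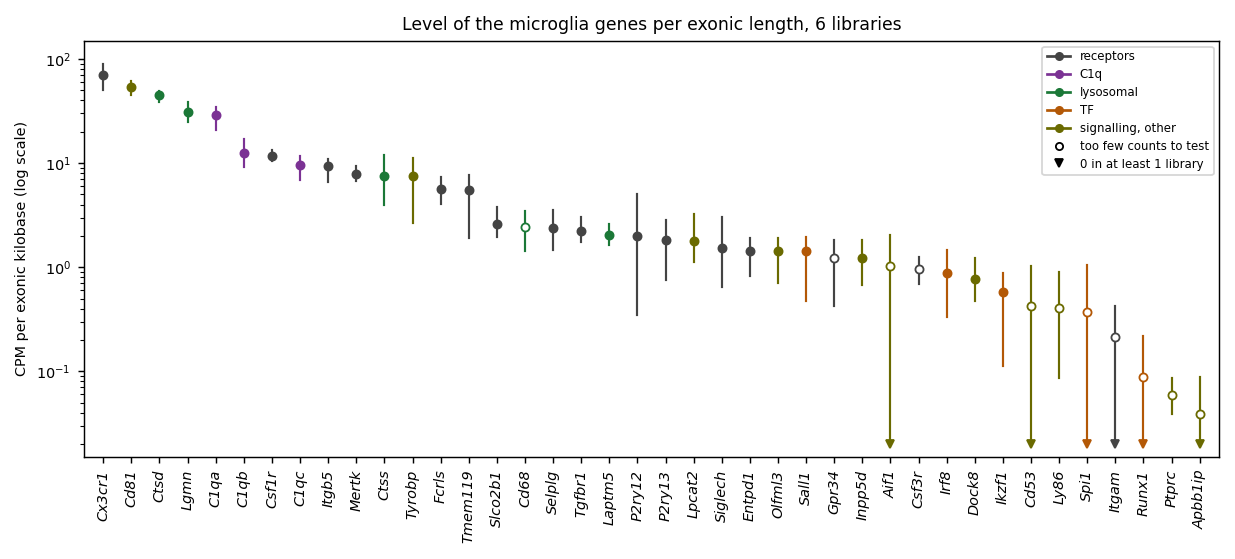
CPM per exonic kilobase (log axis) of the 40 microglia genes with counts, ordered by their mean over the 6 libraries, with vertical lines from the lowest to the highest library and colours for the role classes. Cx3cr1 at 69.5 CPM per kilobase leads the order, the transcription factors lie in its lower part, and open circles mark genes with too few counts to test.

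Among the homeostatic receptors, Cx3cr1 held most of the reads. Its level was 404, 390.2 and 327 CPM in the 4-AP libraries, against 251, 279 and 227 CPM in the control libraries. The lowest 4-AP library lay above the highest control library. The means were 374 CPM in 4-AP brain and 252 CPM in control brain, a log2 fold change of 0.57 (SE 0.14, 95% interval 0.27 to 0.86; edgeR adjusted p = 0.0593, higher in 3 of 3 4-AP libraries than in any control). Over the 14 alternative settings the log2 fold change of Cx3cr1 ran from 0.35 to 0.66 and its adjusted p from 0.0105 to 0.355, with a call in 3 of them. Cx3cr1 made up 33.8% ± 1.41 of the list's reads in 4-AP libraries and 26.96% ± 1.04 in control libraries (SD, n = 3 each).

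The purine receptor P2ry12 had the highest fold change of the 29 tested genes, from few reads. It stood at 4.56, 12.9 and 5.12 CPM in the 4-AP libraries and at 2.20, 4.93 and 0.893 CPM in the control libraries, from 50 counts in 4-AP and 28 in control brain. The groups overlapped, 1 4-AP library (replicate 2) standing far above the rest. Its log2 fold change of 1.47 (SE 0.56; edgeR adjusted p = 0.220) was 0.77 without that library and 2.27 without control replicate 2. Its neighbour on chromosome 3 and close relative P2ry13 was at 7.17, 2.14 and 5.85 CPM in 4-AP libraries and at 1.89, 4.93 and 5.80 CPM in control libraries. For P2ry13 the groups overlapped over nearly their whole range. Both genes lie within the gene Med12l on the opposite strand, and P2ry12 shares 0.353% of its exonic bases with it.

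Siglech, a sialic acid-binding lectin that marks microglia among brain macrophages, was the 1 gene of the list whose 4-AP libraries all lay below the controls. It had 3.91, 3.22 and 2.19 CPM in the 4-AP libraries against 4.71, 10.4 and 6.69 CPM in the control libraries, from 18 counts in 4-AP and 70 in control brain. The log2 fold change was -1.21 (SE 0.50; edgeR adjusted p = 0.268), and -0.82 without control replicate 2. Selplg, the P-selectin ligand, did not overlap in the other direction, with 14.99, 10.4 and 11.7 CPM in 4-AP libraries and 8.49, 9.34 and 6.25 CPM in control libraries. Its log2 fold change was 0.58 (SE 0.34; edgeR adjusted p = 0.495).

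The growth factor receptor Csf1r gave the narrowest interval among the receptors after Cx3cr1. It had 60.6, 73.6 and 65.8 CPM in the 4-AP libraries and 62.9, 77.8 and 62.9 CPM in the control libraries, and the groups overlapped. Its log2 fold change was -0.023 with a 95% interval of -0.40 to 0.35. As a fold of 4-AP over control this interval ran from 0.76 to 1.28. Csf1r shares 15.1% of its exonic bases with Hmgxb3 on the opposite strand. Mertk, a receptor for clearing dying cells, had 34.6, 29.3 and 29.2 CPM in 4-AP libraries and 33.9, 40.7 and 38.4 CPM in control libraries (log2 fold change -0.29, SE 0.21). The integrin subunit Itgb5 had 37.2, 38.2 and 23.4 CPM in 4-AP libraries and 31.7, 38.6 and 30.8 CPM in control libraries (log2 fold change -0.020, SE 0.23). Both overlapped between the groups.

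The remaining tested receptors and surface proteins lay between these. Tmem119, a surface protein used to tell microglia from other macrophages, was at a log2 fold change of -0.42 (SE 0.35), with 4.39 CPM in 4-AP replicate 3 and 11.6 to 17.9 CPM in the 5 other libraries. The growth factor receptor Tgfbr1, the transporter Slco2b1, the Fc receptor-like gene Fcrls and the ectonucleotidase Entpd1, which degrades ATP, ran from -0.22 to 0.27 on the log2 scale, and none of them passed the test.

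**Figure D2:**
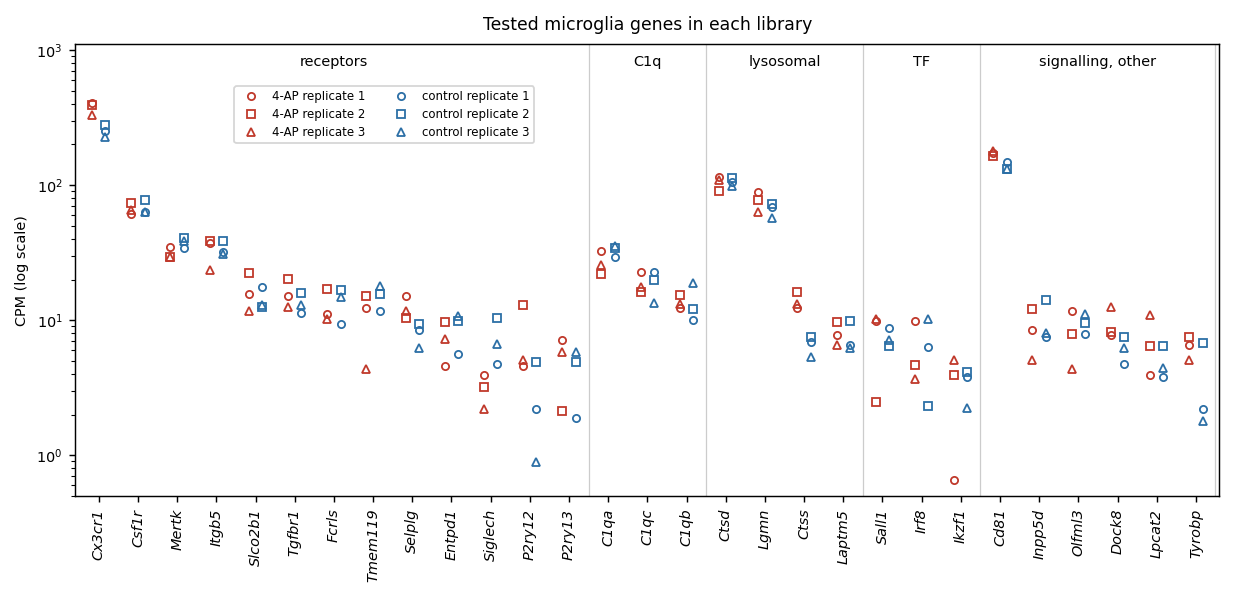
CPM (log axis) of the 29 tested microglia genes in each library, grouped by role, with the 3 4-AP libraries left of the 3 control libraries for each gene. Cx3cr1, Selplg, Ctss, Cd81 and Dock8 have all 4-AP symbols above all control symbols and Siglech has them below.

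The 3 chains of complement C1q are encoded next to each other on chromosome 4, within 136880129 to 136898803 (mm10), all on the minus strand. C1qa had 32.6, 21.8 and 25.6 CPM in the 4-AP libraries and 29.2, 34.2 and 35.7 CPM in the control libraries. C1qb had 12.4, 15.4 and 13.2 CPM in the 4-AP libraries and 10.1, 12.2 and 18.7 CPM in the control libraries. C1qc had 22.8, 16.1 and 17.5 CPM in the 4-AP libraries and 22.6, 19.7 and 13.4 CPM in the control libraries. The groups overlapped for each chain. The log2 fold changes were -0.33 for C1qa (95% interval -0.80 to 0.14), 0.040 for C1qb (-0.61 to 0.69) and -0.015 for C1qc (-0.58 to 0.55), and none of the 3 passed the test.

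Of the lysosomal genes, the protease cathepsin S stood out. Ctss, on chromosome 3 at 95526786 to 95556403 (mm10), had 12.4, 16.1 and 13.2 CPM in the 4-AP libraries and 6.91, 7.52 and 5.36 CPM in the control libraries, from 82 counts in 4-AP and 63 in control brain. Every 4-AP library was above every control library. Its log2 fold change was 1.07 (SE 0.34, 95% interval 0.36 to 1.77; edgeR adjusted p = 0.129, and 0.118 to 0.303 over 13 alternatives). The more abundant proteases showed no such gap. Ctsd had 115, 90.05 and 109.6 CPM in 4-AP libraries and 106, 113 and 99.1 CPM in control libraries (log2 fold change -0.026, 95% interval -0.36 to 0.31). It shares 34.4% of its exonic bases with Gm49369 on the same strand, which had 0 counts. Legumain, encoded by Lgmn, had 89.3, 77.5 and 63.6 CPM in 4-AP libraries and 68.5, 72.9 and 57.1 CPM in control libraries (log2 fold change 0.21, SE 0.18). Laptm5, a lysosomal membrane protein of blood-derived and microglial cells, had 7.82, 9.65 and 6.58 CPM in 4-AP libraries and 6.60, 9.86 and 6.25 CPM in control libraries (log2 fold change 0.094, SE 0.38). Cd68, a membrane glycoprotein of phagocyte lysosomes, had 21 counts in 4-AP and 24 in control brain and was not tested. Scaled to library size, its ratio of rates, 4-AP over control, was 1.42 (95% counting interval 0.75 to 2.67).

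The transcription factor genes had few reads. Sall1, which holds microglia in their tissue-specific state, had 9.78, 2.501 and 10.2 CPM in the 4-AP libraries and 8.80, 6.48 and 7.14 CPM in the control libraries. Irf8 had 9.78, 4.65 and 3.65 CPM in the 4-AP libraries and 6.29, 2.33 and 10.3 CPM in the control libraries. Ikzf1, the Ikaros factor of blood lineages, had 0.652, 3.93 and 5.12 CPM in the 4-AP libraries and 3.77, 4.15 and 2.23 CPM in the control libraries. In all 3 the groups overlapped, and the log2 fold changes were -0.11 for Sall1 (SE 0.47), -0.019 for Irf8 (SE 0.54) and -0.082 for Ikzf1 (SE 0.61). Spi1, which encodes PU.1, had 0, 1.43 and 0.731 CPM in 4-AP libraries and 0.943, 2.85 and 0 CPM in control libraries and was not tested. Runx1 had 7 counts in each group, a ratio of rates of 1.63 (95% counting interval 0.49 to 5.44). At this depth even a 2-fold change lay within the 95% intervals of Sall1, Irf8 and Ikzf1 in at least 1 direction.

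Among the signalling and other genes, Cd81 had 172, 163.7 and 178 CPM in the 4-AP libraries and 148, 131 and 131 CPM in the control libraries. All 4-AP libraries were above all control libraries, with a log2 fold change of 0.32 (SE 0.15; edgeR adjusted p = 0.324). Dock8, an exchange factor for the GTPase CDC42 in immune cells, had 7.82, 8.22 and 12.4 CPM in 4-AP libraries and 4.71, 7.52 and 6.25 CPM in control libraries (log2 fold change 0.59, SE 0.40; edgeR adjusted p = 0.561). Its groups did not overlap either. Inpp5d, the lipid phosphatase SHIP of immune receptor signalling, had 8.48, 12.1 and 5.12 CPM in 4-AP libraries and 7.54, 14.0 and 8.03 CPM in control libraries (log2 fold change -0.15). The secreted protein gene Olfml3 had 11.7, 7.86 and 4.39 CPM in 4-AP libraries and 7.86, 9.60 and 11.2 CPM in control libraries (log2 fold change -0.23). Both overlapped between the groups. The adaptor gene Tyrobp, with 38 counts in 4-AP and 37 in control brain, was at 0.78 (SE 0.53) and the lipid enzyme gene Lpcat2 at 0.48 (SE 0.47), and neither passed the test.

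**Figure D3:**
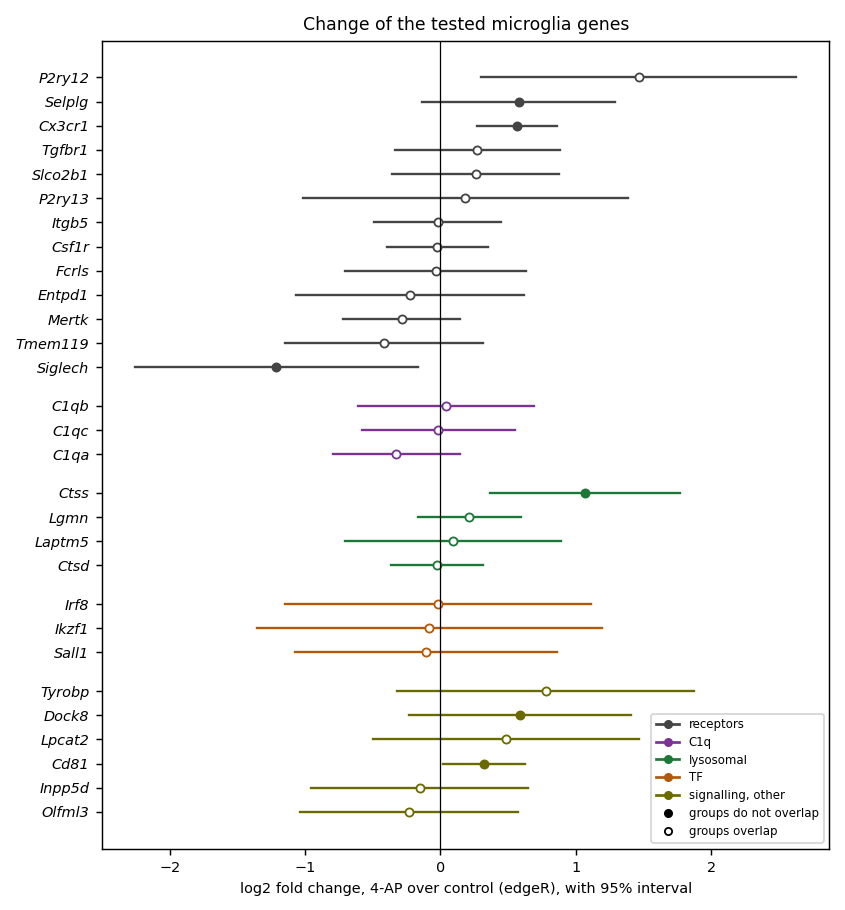
log2 fold change of 4-AP over control brain (x axis) for the 29 tested microglia genes, with 95% intervals from edgeR and filled symbols where the libraries of the 2 groups do not overlap. The values run from -1.21 for Siglech to 1.47 for P2ry12, and most intervals cross 0.

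Set side by side, the role classes had median log2 fold changes from -0.082 to 0.40, and differences between classes were not tested. The 13 tested homeostatic receptors and surface proteins, of 17 listed, had a median log2 fold change of -0.020, with 6 above and 7 below 0 and values from -1.21 to 1.47. The 3 C1q chains had a median of -0.015. The 4 tested lysosomal genes, of 5, had a median of 0.15, which was -0.063 when libraries were scaled by total counts alone, a scaling that moved the median of all genes to -0.22. The 3 tested transcription factors, of 5, had a median of -0.082. The 6 tested signalling and other genes, of 11, had a median of 0.40, which was -0.19 with no filter on low counts. The median was -0.015 over all 29 and -0.0076 over all 11388 genes. None of these classes had a member that passed the test.

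Summed over all 41 genes, the level was 1169, 1126 and 1018 CPM in the 4-AP libraries and 909, 1016 and 880.1 CPM in the control libraries. The lowest 4-AP library was just above the highest control library. That gap depended on the scaling. As plain shares of all reads the groups overlapped, at 0.0923% to 0.116% in 4-AP libraries and 0.0837% to 0.115% in control libraries. Without Cx3cr1 the sum was 765, 735 and 690.0 CPM in the 4-AP libraries and 658, 737 and 653 CPM in the control libraries, and the groups overlapped. The receptors without Cx3cr1 summed to 229 ± 32.7 CPM in 4-AP brain and 233 ± 29.7 CPM in control brain (SD, n = 3 each). The C1q chains summed to 59.1 ± 7.68 CPM in 4-AP brain and 65.3 ± 3.05 CPM in control brain, the lysosomal genes to 207 ± 17.1 and 189 ± 18.5 CPM in 4-AP and control brain, and the transcription factors to 19.0 ± 5.34 and 19.1 ± 1.73 CPM in 4-AP and control brain (SD, n = 3 each). The signalling and other genes summed to 216 ± 4.39 CPM in 4-AP brain and 176 ± 5.82 CPM in control brain, most of it Cd81. Each of these sums is a description without a test.

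**Figure D4:**
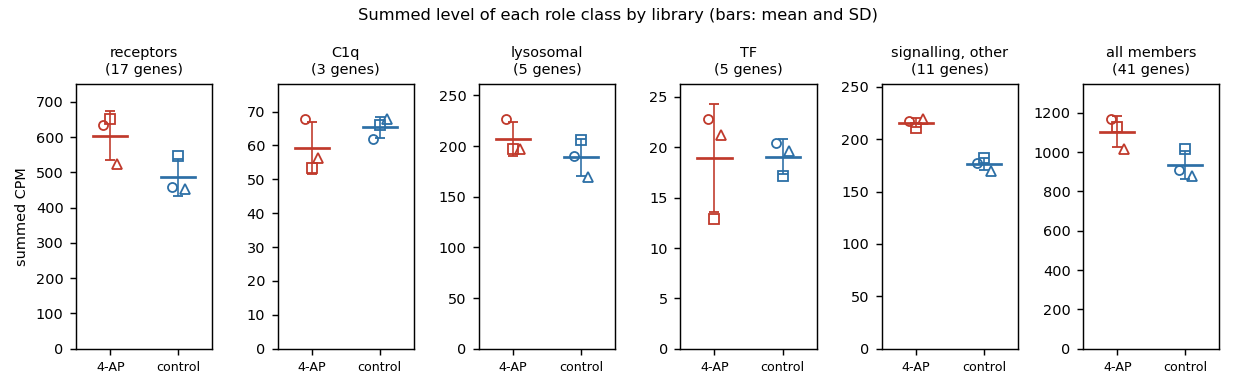
Summed CPM of each role class (y axis, starting at 0) in each library, 4-AP left of control, with the mean as a line and the SD as bars (n = 3 each). The classes with 4-AP libraries clear of the controls are the signalling and other genes, where Cd81 carries most of the reads, and all members. For all members the groups overlap once Cx3cr1 is left out, and also as plain shares of all reads.

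The libraries did not order the genes in 1 way. Of the 29 tested genes, 7 had their highest CPM in 4-AP replicate 1, 6 in 4-AP replicate 2, 5 in 4-AP replicate 3, 6 in control replicate 2 and 5 in control replicate 3. The lowest CPM fell in 4-AP replicate 3 for 7 genes, in control replicate 1 for 6 and in control replicate 3 for 9. The 95% interval lay within a 2-fold change in either direction for 15 of the 29.

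The 12 genes that were not tested had 103 counts in the 4-AP libraries and 160 in the control libraries together. These are raw counts, and total counts were lower in the 4-AP group, so they are not rates. Gpr34, a lysophosphatidylserine receptor, had 13 counts in 4-AP and 27 in control brain, a ratio of rates of 0.78 (95% counting interval 0.37 to 1.57). The granulocyte receptor Csf3r had 20 and 32 counts in 4-AP and control brain (ratio 1.02, interval 0.55 to 1.83). Aif1, which encodes the common microglial stain IBA1, had 7 counts in 4-AP and 18 in control brain (ratio 0.63, interval 0.22 to 1.59). Ly86, a Toll-like receptor partner, had 13 counts in 4-AP and 7 in control brain (ratio 3.02, interval 1.12 to 8.95), the 1 untested gene whose counting interval left out 1. The intervals cover counting error and not the spread between libraries. Itgam had 9 and 7 counts in 4-AP and control brain (ratio 2.09, interval 0.69 to 6.61). Of its exonic bases, 68.7% are shared with Gm49368 on the same strand, which had 0 counts. The pan-leukocyte phosphatase Ptprc had 5 and 12, the tetraspanin Cd53 had 2 and 9, and the adaptor Apbb1ip had 1 and 3 counts in 4-AP and control brain. Their ratios of rates were 0.68, 0.36 and 0.54.

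Ligands and partners of these genes were followed in a list of 35, of which 23 were tested, 0 passed on the higher side and 2 on the lower side. The 2 were the adenosine receptor Adora1 and the transcription factor Mef2c, both also abundant in neurons. Adora1 fell to 94.5, 96.8 and 93.6 CPM in the 4-AP libraries against 177, 153 and 145 CPM in the control libraries, a log2 fold change of -0.74 (SE 0.15; edgeR adjusted p = 0.0227). Mef2c fell to 175, 134 and 127 CPM in the 4-AP libraries against 217, 272 and 229.8 CPM in the control libraries, a log2 fold change of -0.72 (SE 0.16; edgeR adjusted p = 0.0327). In both, every 4-AP library lay below every control library. The median of the 23 was -0.031.

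The ligand of CX3CR1 lay on the other side of 0 from its receptor. Cx3cl1, which encodes the chemokine fractalkine, made mainly by neurons, had 434, 427 and 388 CPM in the 4-AP libraries and 652, 550.1 and 635 CPM in the control libraries. Its 4-AP libraries were all below the controls, with a log2 fold change of -0.56 (SE 0.14; edgeR adjusted p = 0.0548), while Cx3cr1 was at 0.57 with all 4-AP libraries above. Neither passed the test. Of the CSF1R ligands, Csf1 was at -0.21 (SE 0.28) and Il34 at -0.54 (SE 0.26). Of the TGF-beta genes, Tgfb2 had 16 counts in 4-AP brain against 63 in control brain and a log2 fold change of -1.25 (SE 0.49; edgeR adjusted p = 0.238), and the second receptor gene Tgfbr2 was at -0.14 (SE 0.28). The complement gene C4b was at -0.46 (SE 0.29). Cx3cl1, Csf1, Il34, Tgfb2, Tgfbr2 and C4b were chosen for naming after their values were seen.

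**Figure D5:**
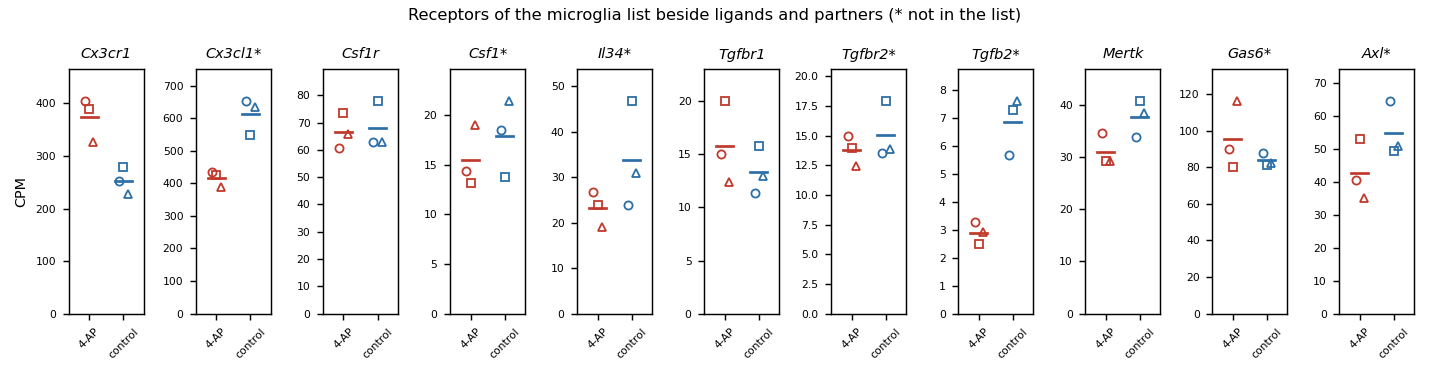
CPM (y axes, each starting at 0) of receptors of the microglia list beside ligands and partners outside it, marked by a star, in each library with the group mean as a line, 4-AP left of control. Cx3cr1 is above the controls and Cx3cl1 below them in all 3 4-AP libraries, while Csf1r and Tgfbr1 overlap between the groups.

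Genes of activated microglia gave no call. Of 29 listed, 14 were tested, with a median log2 fold change of 0.071, and 0 passed in either direction (1 had an unadjusted edgeR p under 0.05). That gene was the ferritin subunit Fth1, at 132, 90.05 and 102 CPM in 4-AP libraries and 87.1, 76.5 and 81.2 CPM in control libraries (log2 fold change 0.40, SE 0.17; edgeR adjusted p = 0.313). The prostaglandin synthase gene Ptgs2, which neurons also make, was at -1.09 (SE 0.55; edgeR adjusted p = 0.389). The cytokine genes Tnf, Ccl2, Ccl3 and Ccl4 had 0 counts in every library and Il1b had 1 count in all, so levels below about 3 counts per library could not be compared.

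Other immune cells that could share these markers had few reads. Of 10 border macrophage genes 1 was tested, Stab1 at -0.23 (SE 0.23), and the list summed to 41.7 to 47.9 CPM in 4-AP libraries and 37.0 to 55.6 CPM in control libraries. F13a1, a coagulation factor gene of such macrophages named after its values were seen, had 34 counts in 4-AP and 7 in control brain. The other untested genes of that list were split in direction, all at low levels. Mean CPM in 4-AP and control brain was 1.54 and 0.592 for Cbr2, 2.95 and 2.29 for Dab2, and 0.238 and 0 for Pf4. It was 2.10 and 3.24 for Cd163, 0 and 0.513 for Lyve1, 0 and 0.298 for Ms4a7, and 0 and 0.191 for Cd209f. Mrc1 was level, at 3.77 and 3.76. None of 14 monocyte and neutrophil genes could be tested, and 6 of them, among them Ccr2, S100a8 and S100a9, had 0 counts in every library. That list summed to 0.715 to 12.4 CPM in 4-AP libraries and 0.314 to 3.12 CPM in control libraries. Of 12 lymphocyte genes 8 had 0 counts in every library, Cd3e among them, and 1 was tested, Cd4 at 0.27 on the log2 scale (SE 0.98). Cd4 had 0 counts in control replicate 1, but 8.30 CPM in control replicate 2 and 13.4 CPM in control replicate 3. The partner gene Adora2a was likewise low in control replicate 1, at 1.26 CPM, beside 56.8 CPM in control replicate 2 and 108 CPM in control replicate 3. Whether control replicate 1 held the same brain tissue as the other libraries was not tested. The haemoglobin and other red cell genes summed to 13.2 to 27.8 CPM in 4-AP libraries and 12.9 to 23.1 CPM in control libraries, and of the 3 tested, with a median log2 fold change of 0.62, 0 passed.

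Of other brain cell types, the 10 neuron genes summed to 2988 to 3636 CPM in 4-AP libraries and 3958 to 4360.3 CPM in control libraries. They had a median log2 fold change of -0.25, and 1 of them, the glutamate transporter gene Slc17a7, fell by 0.79 on the log2 scale (edgeR adjusted p = 0.0142), with Rbfox3 at -0.65 (edgeR adjusted p = 0.0604). The 8 astrocyte genes summed to 2173 to 2512 CPM in 4-AP libraries and 2804 to 2943 CPM in control libraries, but their median log2 fold change was 0.11, with 6 above and 2 below 0. The 2 were the glutamate transporter gene Slc1a2, which fell by 0.63 on the log2 scale (edgeR adjusted p = 0.0328; means of 1132 CPM in 4-AP and 1748 CPM in control brain), and Aldh1l1 at -0.28. Of 8 oligodendrocyte genes (median 0.071; Opalin at 0.80) and 8 vessel genes (median -0.051; Cldn5 at 0.62 and Pecam1 at 0.54), 0 passed in either direction. Whether the lower neuronal sum bears on the level of Cx3cr1 or Ctss in the same libraries was not tested.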

How the data were processed

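RNase R-treated brain RNA was sequenced in 3 4-AP and 3 control samples. For each sample the authors deposited gene-level read counts, as whole numbers without normalization. The submitters' processing notes name STAR 2.5.3a, featureCounts and mm10. Which annotation, strand option and rule for multi-mapping reads were used is not given in the sources used here, so reads of overlapping genes on opposite strands cannot be told apart. Identifiers were matched without version to GENCODE M21 on the same assembly (54809 of 55604), which also gave exonic lengths and overlaps. Promoters came from RefSeq.

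Low genes were removed with filterByExpr (count of 10, total of 15). Libraries were scaled by TMM, and 4-AP was set against control in a robust quasi-likelihood fit without covariates (edgeR 4.0.16, R 4.3.3), with Benjamini-Hochberg adjustment over all genes and a threshold of 0.05. Standard errors came from the fold change and F. A count table of 3 against 3 gives wide intervals for genes of few reads. Alternatives were other scalings, DESeq2 1.42.0, limma-voom (limma 3.58.1), other filters, the replicate number as a block and each library left out. The procedure was tested on simulated counts, in 5 draws with 200 changed genes each. It recovered 53.2% of 2-fold changes and 94% of 4-fold changes, and 9% of its calls fell on unchanged genes. The changed genes were drawn from all genes tested, and recovery was not measured for the microglia genes alone. A 2-fold change could thus often be missed. The closest pair of libraries, at a chi-square per degree of freedom of 7.79, was 4-AP replicate 2 with control replicate 3. No library was dropped as a repeat of a different one. Control replicate 3 lay further from control replicates 1 and 2 (23.1 and 21.9) than from 4-AP replicate 3 (8.47) or 4-AP replicate 1 (19.8). This measure uses raw counts, so it grows with depth and weighs the most counted genes heavily. Lars2 took 12.1% of the reads in control replicate 3, beside 3.82% and 4.21% in control replicates 1 and 2. Why control replicate 3 lay nearer the other group was not tested. These values do not show whether the samples came from separate animals.

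The genes and lists were chosen with earlier results of these data known. Values in every library are given for members with an unadjusted p under 0.05, the 4 most counted members of each role class and members whose groups do not overlap. Members beyond that, and the 2 genes with the smallest p in each other list, are given with fewer values, except 1 that is not reported here.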

Additional observations from a re-analysis of the deposited data

How the results depend on the processing

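No member was called in 11 of the 14 alternatives. Cx3cr1 was the 1 member called higher with DESeq2 (log2 0.58), with no filter on low counts (0.54) and with the replicate block (0.57). 4-AP and control samples that shared a number had deviations that correlated at -0.0019, 0.113 and 0.0245. Samples with different numbers correlated at -0.101 to 0.0636. These values do not settle whether the numbers pair the samples, and the main fit did not pair them. The block gave 112 genes higher and 153 lower over all genes. DESeq2 gave 82 higher and 111 lower and left 24 of the 29 members without an adjusted p, no filter gave 131 higher and 197 lower, and total counts gave 293 lower. Leaving out each library in turn gave 16 to 105 genes higher and 10 to 54 lower (when the library dropped was 4-AP 1, 23 and 29; 4-AP 2, 91 and 36; 4-AP 3, 16 and 10; control 1, 105 and 54; control 2, 17 and 24; control 3, 27 and 10), 0 members called, 28 to 32 members tested and 7 to 10 members whose groups do not overlap.

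With total counts only the median log2 fold change was -0.245 for the C1q chains, -0.063 for the lysosomal genes, 0.19 for the signalling and other genes and -0.22 for all members, as for all genes. The signalling and other genes were at -0.19 with no filter and 0.075 with a CPM above 1 in 3 libraries. Without 1 library the medians ran from -0.18 to 0.017 (C1q), 0.12 to 0.33 (lysosomal), -0.41 to 0.21 (transcription factors), 0.20 to 0.55 (signalling and other), -0.083 to 0.17 (receptors) and 0.00098 to 0.17 (all members).

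Of 29 members, 15 changed sign in some alternative, each with a log2 fold change within 0.261 of 0. With relative log expression C1qc was at 0.0028. With upper quartile scaling Csf1r was at 0.0031, Itgb5 at 0.0055, C1qc at 0.013, Ctsd at 0.0024 and Irf8 at 0.011. With total counts P2ry13 was at -0.034, C1qb at -0.15, Lgmn at -0.013 and Laptm5 at -0.11. With limma-voom Fcrls was at 0.029 and Irf8 at 0.22, and with the replicate block Irf8 was at 0.12. Without 1 library the ranges were P2ry13 -0.19 to 0.68, Csf1r -0.083 to 0.11, Fcrls -0.32 to 0.17, Ikzf1 -0.41 to 0.34, Slco2b1 -0.037 to 0.45, C1qb -0.13 to 0.30, C1qc -0.18 to 0.15, Ctsd -0.099 to 0.11, Laptm5 -0.065 to 0.36, Irf8 -0.50 to 0.48, Sall1 -0.43 to 0.45, Itgb5 -0.13 to 0.15, Inpp5d -0.52 to 0.22, Olfml3 -0.55 to 0.0085. The cause of these differences was not tested. Depth limits the members with few counts most.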
